A study of Mus musculus with 18 samples.

Results

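The question here was whether a knock-in change of lysine 730 of TLR4 to arginine alters the size of the transcriptional response of mouse peritoneal macrophages to LPS. The measure was the response of TLR4-K730R cells (LPS minus mock) minus the response of WT cells, on the log2(FPKM + 1) scale. It used 12 of the 18 libraries of the series, chosen by genotype and treatment in their labels: 3 libraries each of mock-treated WT, LPS-treated WT, mock-treated TLR4-K730R and LPS-treated TLR4-K730R cells. LPS was given at 100 ng/mL for 6 h. Per the methods of the study, the mutant mice were made by CRISPR/Cas9 on a C57BL/6 background, and the cells were peritoneal lavage cells collected after injection of thioglycolate medium, an irritant that recruits leukocytes. The age and sex of the animals, and whether each library came from a separate animal, are not given in the sources used here, so the p-values measure the spread between these libraries, which may be technical. The other 6 libraries came from TLR4-K810R cells and served to estimate the spread and to choose LPS-responsive genes outside the contrast.

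TLR4 is the receptor for bacterial lipopolysaccharide on macrophages, where it binds the ligand with its partner MD-2 (Ly96) after transfer from CD14. It signals through adaptors at its cytoplasmic TIR domain. The Myd88 branch leads to NF-κB and to cytokines such as TNF and IL-6, and the TRIF (Ticam1) branch leads to IRF3, type I interferon and, through the interferon receptor, to interferon-stimulated genes. Macrophages also transcribe these genes at a low level without any stimulus, through tonic interferon signalling.

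The mutated codon lies in exon 3 of Tlr4 on the plus strand of chromosome 4 of GRCm38. It is shown here as the reference (unedited) sequence, with codon 730 in capitals, beside the codon of the TLR4-K810R line, because these designed changes define the genotypes.
Codon 730, chr4:66841144-66841176: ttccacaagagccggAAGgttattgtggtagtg
Codon 810, chr4:66841384-66841416: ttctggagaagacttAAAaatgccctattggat
Both codons encode lysine. The deposited values are summed per transcript end and hold no reads, so the genotype of a library could not be checked against its sequence. Tlr4 itself was listed at 11.6, 14.2 and 9.33 FPKM in mock-treated WT libraries and at 12.1, 9.31 and 9.85 FPKM in mock-treated TLR4-K730R libraries. After LPS it was at 5.72, 4.76 and 5.01 FPKM in WT and at 5.10, 4.38 and 4.57 FPKM in TLR4-K730R. The Tlr4 levels of the genotypes overlapped in both conditions, both genotypes fell, and the responses differed by 0.03 (95% interval -0.41 to 0.47).

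The files gave FPKM for single transcript events, 80071 to 90401 per library, without read counts, so the depth behind each value is unknown. After summing per gene, 9707 genes passed the filter of 1 FPKM in at least 3 of the 18 libraries. Of the genes tested 53 were at 0 in a library beside a replicate above 5 FPKM. Others were low in a single library, as Saa3 was at 1.63 FPKM in LPS-treated TLR4-K730R replicate 3, beside 11074 and 9443 FPKM. Macrophage genes were high in every library, with Adgre1 (F4/80) between 184 and 267 FPKM in the 12 libraries, whereas no gene of the T and NK cell list passed the filter. After LPS, replicate 3 of each genotype lay nearer to the other genotype than to its own. The WT replicate 3 library correlated with TLR4-K730R replicates 1 and 2 at r = 0.970 for both across the 9707 genes, and with the other WT libraries at r = 0.966 and 0.962. The TLR4-K730R replicate 3 library correlated with WT replicates 1 and 2 at r = 0.969 and 0.974, and with its own group at r = 0.966 and 0.963. Within each LPS-treated group replicates 1 and 2 were the closest pair (r = 0.972 in WT and 0.975 in TLR4-K730R). Among all LPS-treated libraries WT replicate 2 was closest to TLR4-K730R replicate 3. Of the 88 interferon-stimulated genes tested, 60 (68.2%) were lowest in replicate 3 among the LPS-treated WT libraries and at the same time highest in replicate 3 among the LPS-treated TLR4-K730R libraries, against 14.3% of all genes. Some other genes went with the labels, chosen here after their values were seen. After LPS Reg3g, an intestinal lectin, was at 0, 0 and 0.992 FPKM in WT replicates 1, 2 and 3 and at 16.3, 12.7 and 12.7 FPKM in those of TLR4-K730R, and Igkc was also apart between the genotypes. Of the 10 intestinal genes tested 7 were higher in every LPS-treated TLR4-K730R library than in every WT library. This held for 3.32% of all genes. Lgals4 (0, 1.58 and 1.82 FPKM in WT, 3.76, 3.11 and 0.523 FPKM in TLR4-K730R) was not among the 7. Whether the labels of these libraries were exchanged was not tested. The labels were kept as given, and the direction of each LPS difference rests on them. Values without the pair, an alternative added after the data were seen, are given beside many of the results below. The fit without them leaves out the libraries that lie nearest to the other group, so its calls are not independent evidence.

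Both genotypes responded to LPS broadly, and most called genes were common to both. In WT cells limma (adjusted p below 0.01) called 1012 genes higher (10.4%) and 2316 lower (23.9%) after LPS. In TLR4-K730R cells it called 905 higher (9.32%) and 2568 lower (26.5%). Of the called genes, 2728 were common to both responses, which is 81.97% of the WT calls and 78.55% of the TLR4-K730R calls, and 2727 of these moved in the same direction. Across the 9707 genes, which are not independent replicates, the responses correlated at r = 0.905. The split between higher and lower calls depended on the scaling: with median-of-ratios scaling it was 1493 to 1380 in WT and 1483 to 1310 in TLR4-K730R, and with quantile normalization 1264 to 1620 and 1240 to 1532. The difference of responses was centred close to 0, with a median of -0.06 and an interquartile range of -0.28 to 0.15, and it exceeded 1 in either direction in 332 genes (3.42%). The median standard error of a difference was 0.29, which sets the size of a change that could be seen.

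**Figure D1:**
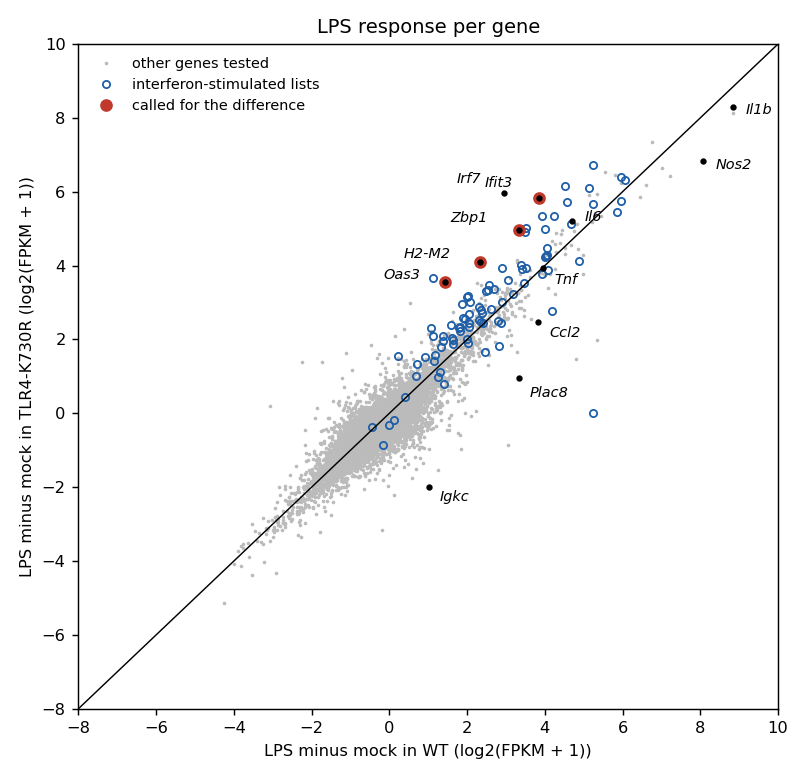
LPS response of each of the 9707 genes in WT cells (x axis) and in TLR4-K730R cells (y axis), as LPS minus mock in log2(FPKM + 1), group means of 3 libraries. Points on the diagonal line have equal responses; the called genes Zbp1, Ifit3, Oas3 and H2-M2 and most interferon-stimulated genes lie above it, Tnf lies on it, and Plac8, Igkc and Ccl2 lie below it.

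The genes that differed in the size of the response all had a larger log2 response in TLR4-K730R. They were Zbp1, Ifit3, Oas3 and H2-M2, 4 of 9707 genes (0.0412%) at an adjusted p below 0.01 in limma. In each of them the larger response began from a lower mock level, and the LPS-treated groups overlapped over all 3 replicates. No gene was called with a smaller response in TLR4-K730R at this threshold, although at an unadjusted p below 0.05 there were 681 genes (7.02%), of which 461 (4.75%) were lower and 220 (2.27%) higher. Zbp1, Ifit3 and Oas3 were called in all fits that left out a single library. All 3 lost the call when replicate 1 or replicate 2 of every group was left out (limma adjusted p from 0.0598 to 0.101, differences from 1.52 to 2.503). Ifit3 and Oas3 also lost it without replicate 3 of every group, and with only the 12 libraries in the fit (limma adjusted p = 0.0189 and 0.0134).

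Zbp1, a sensor of Z-form nucleic acid that can start necroptosis (chr2:173206612-173218923, minus strand), was at 22.1, 26.7 and 20.7 FPKM in mock-treated WT cells and at 6.16, 6.09 and 7.25 FPKM in mock-treated TLR4-K730R cells. After LPS it reached 243, 240.2 and 238 FPKM in WT and 231, 227 and 244 FPKM in TLR4-K730R. The mock groups did not overlap and the LPS groups did. The response was 3.33 in WT and 4.97 in TLR4-K730R, a difference of 1.65 ± 0.15 (SE, 3 libraries per group, limma adjusted p = 0.00015).

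Ifit3, an interferon-induced protein with tetratricopeptide repeats that takes part in antiviral defence (chr19:34583531-34588731, plus strand), was at 30.0, 34.6 and 34.1 FPKM in mock-treated WT cells and at 7.22, 6.00 and 6.01 FPKM in mock-treated TLR4-K730R cells. With LPS it was at 538, 545 and 386 FPKM in WT and at 393, 344 and 552 FPKM in TLR4-K730R. The mock groups were again apart. The LPS groups overlapped, with the low WT value and the high TLR4-K730R value both in replicate 3. The difference of responses was 1.99 ± 0.23 (limma adjusted p = 0.00103), and 1.64 (adjusted p = 0.000553) without the LPS replicate 3 pair. Without that pair TLR4-K730R minus WT after LPS was -0.56 (limma adjusted p = 0.0147). Its close copy Ifit3b, with which reads could be shared, had a difference of 1.41 at much lower FPKM.

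Oas3, which makes the 2-5A messenger on sensing double-stranded RNA (chr5:120753098-120777661, minus strand), was at 41.2, 33.3 and 48.7 FPKM in mock-treated WT cells and at 10.4, 10.04 and 7.69 FPKM in mock-treated TLR4-K730R cells. In LPS-treated cells it was at 117, 125 and 95.2 FPKM in WT and 118, 100.2 and 143 FPKM in TLR4-K730R. Here too only the mock groups were apart. The difference of responses was 2.11 ± 0.25 (limma adjusted p = 0.0012), and 1.86 (adjusted p = 0.00564) without the pair.

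H2-M2, a non-classical MHC class I gene (chr17:37480851-37483552, minus strand), was at 16.4, 17.7 and 15.7 FPKM in mock-treated WT cells and at 5.20, 4.75 and 4.10 FPKM in mock-treated TLR4-K730R cells. LPS-treated cells had 83.1, 91.1 and 87.3 FPKM in WT and 98.0, 102 and 89.7 FPKM in TLR4-K730R. The LPS groups overlapped in 1 library. The difference of responses was 1.78 ± 0.24 (limma adjusted p = 0.00535), and 1.83 (adjusted p = 0.00818) without the pair. This call was the closest to the threshold: leaving out any single library other than mock-treated TLR4-K730R replicate 1 took it past 0.01, to adjusted p between 0.0134 and 0.0274 in limma, while the difference stayed between 1.70 and 1.83. As a class I gene it belongs to a family of close copies between which reads can be shared.

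**Figure D2:**
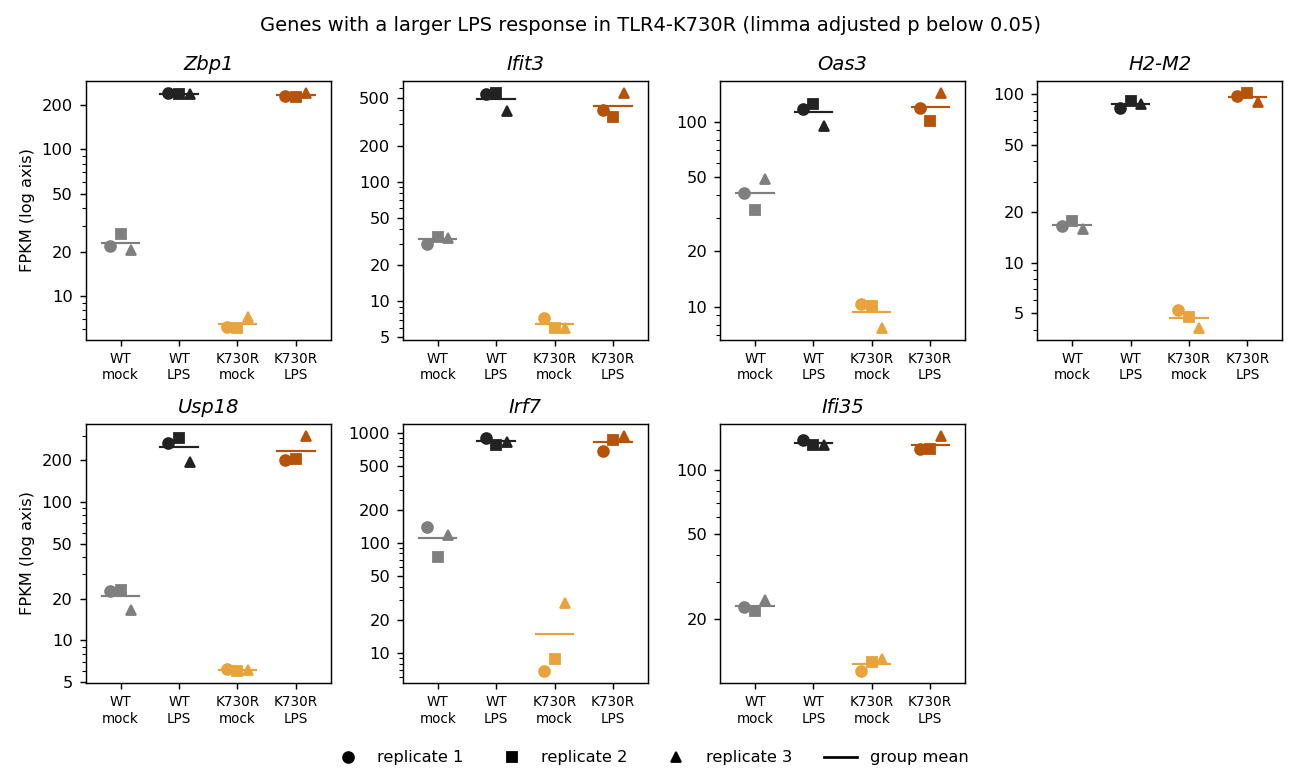
FPKM (log axis) per library for the 7 genes with an adjusted p below 0.05 for the difference of responses, by genotype and treatment; symbols mark the replicate and bars the mean of 3 libraries. In all 7 genes the 3 mock-treated TLR4-K730R libraries lie below the 3 mock-treated WT libraries, and the LPS-treated groups overlap.

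The RefSeq promoter windows of these genes (GRCm38.p6, 250 bases before to 50 after the start, in the direction of transcription) are shown for Ifit3, Oas3 and H2-M2, since Zbp1 had no entry. Capitals mark matches to GAAANNGAAA or, on the other strand, TTTCNNTTTC, the core of the element bound by interferon regulatory factors and ISGF3.
Ifit3, chr19:34583279-34583578, plus strand: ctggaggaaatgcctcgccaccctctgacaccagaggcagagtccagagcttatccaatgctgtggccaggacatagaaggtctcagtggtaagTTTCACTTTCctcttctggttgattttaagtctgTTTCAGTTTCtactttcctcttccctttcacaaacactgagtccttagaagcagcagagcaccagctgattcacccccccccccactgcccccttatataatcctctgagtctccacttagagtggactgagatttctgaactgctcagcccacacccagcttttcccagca
Oas3, chr5:120777610-120777909, minus strand: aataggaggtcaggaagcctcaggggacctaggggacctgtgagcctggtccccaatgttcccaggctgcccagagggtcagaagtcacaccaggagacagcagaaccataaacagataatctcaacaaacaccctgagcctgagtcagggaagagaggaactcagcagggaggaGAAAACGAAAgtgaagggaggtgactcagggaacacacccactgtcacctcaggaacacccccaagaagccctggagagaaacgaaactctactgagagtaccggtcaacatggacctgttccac
H2-M2, chr17:37483505-37483804, minus strand: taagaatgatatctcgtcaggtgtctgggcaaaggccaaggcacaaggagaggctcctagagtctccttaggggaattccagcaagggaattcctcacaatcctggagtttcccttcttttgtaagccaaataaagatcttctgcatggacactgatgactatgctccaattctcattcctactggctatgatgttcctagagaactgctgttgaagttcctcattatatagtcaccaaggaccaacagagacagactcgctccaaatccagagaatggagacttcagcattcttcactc
The Ifit3 window held 2 matches, beginning 156 and 122 bases before the start, the Oas3 window held 1, beginning 75 bases before it, and the H2-M2 window held none. Of all 32851 promoters in the table, 3.44% held a match, and of the 7703 tested genes with an entry 311 (4.04%) did. Of the 68 genes whose response was larger in TLR4-K730R at an unadjusted p below 0.01 (0.701% of all genes), 52 had a promoter entry and 6 of these (11.5%) held a match. Of the 109 genes whose response was smaller at that p (1.12%), 83 had an entry and 4 (4.82%) held one. These shares are descriptions of the windows and not of binding.

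At an adjusted p below 0.05 in limma 3 more genes were found, Usp18, Irf7 and Ifi35, which makes 7 of 9707 (0.0721%). All of them had a larger log2 response in TLR4-K730R. In all 7 genes the mock-treated TLR4-K730R libraries lay below every mock-treated WT library. This held for 7.45% of all genes tested, and for 57 of the 68 genes higher at an unadjusted p below 0.01. A lower mock level is part of what the difference measures. Over all 3 replicates the LPS-treated groups overlapped. In replicates 1 and 2 alone Zbp1, Ifit3, Usp18 and Ifi35 were apart and lower in LPS-treated TLR4-K730R cells, and H2-M2 apart and higher. Irf7, the transcription factor that amplifies type I interferon production, was at 139.7, 74.6 and 117 FPKM in mock-treated WT cells and at 6.86, 8.82 and 28.7 FPKM in mock-treated TLR4-K730R cells. LPS-treated cells had Irf7 at 889.8, 778 and 823 FPKM in WT and at 679.8, 861 and 929.8 FPKM in TLR4-K730R. Its difference, 3.01 ± 0.50 (limma adjusted p = 0.0362), was the largest of the 7, and its mock-treated TLR4-K730R values were the most spread. Usp18, which removes ISG15 from proteins and restrains the interferon receptor, was at 22.6, 23.1 and 16.6 FPKM in mock-treated WT cells and at 6.24, 6.00 and 6.10 FPKM in mock-treated TLR4-K730R cells. In LPS-treated cells Usp18 was at 267, 288 and 193 FPKM in WT and at 200.01, 203 and 299.8 FPKM in TLR4-K730R. Its difference was 1.51 ± 0.25 (limma adjusted p = 0.0362), and 1.14 (adjusted p = 0.0124) without the LPS replicate 3 pair. Ifi35, an interferon-induced leucine zipper protein, had a smaller difference of 0.83 ± 0.14 (limma adjusted p = 0.0417) from mock levels of 21.95 to 24.5 FPKM in WT and 11.5 to 13.0 FPKM in TLR4-K730R.

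Interferon-stimulated genes as a group had larger responses in TLR4-K730R more often than smaller ones, and the genotypes were further apart in mock-treated than in LPS-treated cells. Of the 122 genes on these lists 88 were tested. The difference of responses was above 0 in 70 and below 0 in 18, with a median of 0.43 against -0.06 over all genes. At an unadjusted p below 0.05, 31 were higher and 2 lower, where 2.27% and 4.75% of all genes were, and 3 (Zbp1, Ifit3 and Oas3) were called. In mock-treated cells the median of TLR4-K730R minus WT was -0.72, and 61 of the 88 were lower in every TLR4-K730R library than in every WT library, where 7.45% of all genes were. After LPS the median was -0.29 and 6 of 88 were lower in every library, where 7.54% of all genes were. The summed FPKM of the lists was 2458 to 2641 in mock-treated WT libraries and 1229 to 1345 in mock-treated TLR4-K730R libraries. After LPS it was 15516, 15923 and 11299 FPKM in WT and 10605, 9898 and 14858 FPKM in TLR4-K730R. Summed levels of the marker lists of macrophage subtypes also differed in mock-treated cells. The summed FPKM of the resident peritoneal macrophage list was 183 to 216 in WT and 138 to 145 in TLR4-K730R, and that of the monocyte-derived list was 560.5 to 574 in WT and 705.0 to 725 in TLR4-K730R. Of 6 tested members each, 3 of the resident list were lower and none higher in every TLR4-K730R library. The monocyte-derived list had 2 lower, F10 and Ly6c2, and 2 higher, Plac8 among them. Its median of TLR4-K730R minus WT was 0.03. Of all genes 7.45% were lower and 8.91% higher in every library. In the mast cell list, at 4.79 to 5.25 FPKM in WT and 0.494 to 2.99 FPKM in TLR4-K730R, 3 of 4 tested were lower and 0 higher. The part of these lists in the result was not tested. In these bulk samples fewer cells of a type and less RNA per cell cannot be told apart.

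By family, described by counts and medians with no test between them, the values were as follows. Among the IFIT and IFITM genes, which block viral RNA and viral entry, 4 of 6 tested were higher at an unadjusted p below 0.05 and the median difference was 1.41, with Ifit1 at 1.63 (95% interval 1.02 to 2.25, limma adjusted p = 0.0511) and Ifit2 at 1.42 (0.13 to 2.71), or 0.56 without the LPS replicate 3 pair. Among the OAS genes, which sense double-stranded RNA, Oasl1 was at 1.01 (0.32 to 1.69), or 0.48 without the pair, and Oas2 at 1.09 (0.38 to 1.80). In the list of other interferon-stimulated genes 33 of 39 tested were above 0 (median 0.50), among them Mx1, an antiviral GTPase, at 1.503 (0.62 to 2.39), or 0.82 without the pair, Bst2, which tethers budding virions, at 1.16, and Rtp4 at 2.53. For Rtp4 the LPS-treated WT replicate 3 library was low, at 38.7 FPKM beside 121 and 126 FPKM. The guanylate-binding proteins had a median of 0.32 over 4 tested and the Ifi200 family 0.24 over 7, with 1 and 0 members past an unadjusted p of 0.05. Medians were 0.14 for the nucleic acid sensors and 0.12 for the immunity-related GTPases. On a separate list, outside the 88 genes, MHC class I presentation genes had a median of 0.31 with 17 of 21 tested above 0, H2-T24 among them at 1.09 (0.63 to 1.56).

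Some interferon-stimulated genes went the other way. Iigp1, a GTPase that attacks parasite vacuoles, was near 0 in all mock-treated libraries, at 25.8, 17.7 and 16.2 FPKM in LPS-treated WT and at 4.11, 5.26 and 10.6 FPKM in LPS-treated TLR4-K730R cells. The LPS groups did not overlap, and its difference was -1.42 (-2.18 to -0.66, limma adjusted p = 0.322). Without the LPS replicate 3 pair it was -1.89 and called (limma adjusted p = 0.00732). Tmem173 (STING), the adaptor of cytosolic DNA sensing, had a difference of -0.70 (-1.35 to -0.05). Isg15 was listed at 0 in 10 of the 12 libraries and at 254 and 212 FPKM in the other two, both LPS-treated WT, so no value is read from it, although it is counted among the 18 genes below 0.

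Without the LPS replicate 3 pair the group's difference was smaller. The median over the 88 genes was 0.15, with 54 above 0, and 22 were higher and 11 lower at an unadjusted p below 0.05, where 6.16% and 6.23% of all genes were. The median of TLR4-K730R minus WT after LPS was then -0.59. The IFIT and IFITM median was 0.86, while the Ifi200 family (-0.24), the nucleic acid sensors (-0.11), the guanylate-binding proteins (-0.13) and the immunity-related GTPases (-0.998) changed sign. The other interferon-stimulated genes had a median of 0.21, with 25 of 39 above 0, and the separate MHC class I list one of 0.15, with 14 of 21 above 0. Zbp1, Ifit3, Oas3 and H2-M2 remained called. On the interferon-stimulated lists Ifit1 was added with a larger response, at 1.17 (limma adjusted p = 0.00968), and Iigp1 with a smaller one, which makes 4 higher and 1 lower. The 4 calls thus held with and without the pair, and the group median was lower without it.

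**Figure D3:**
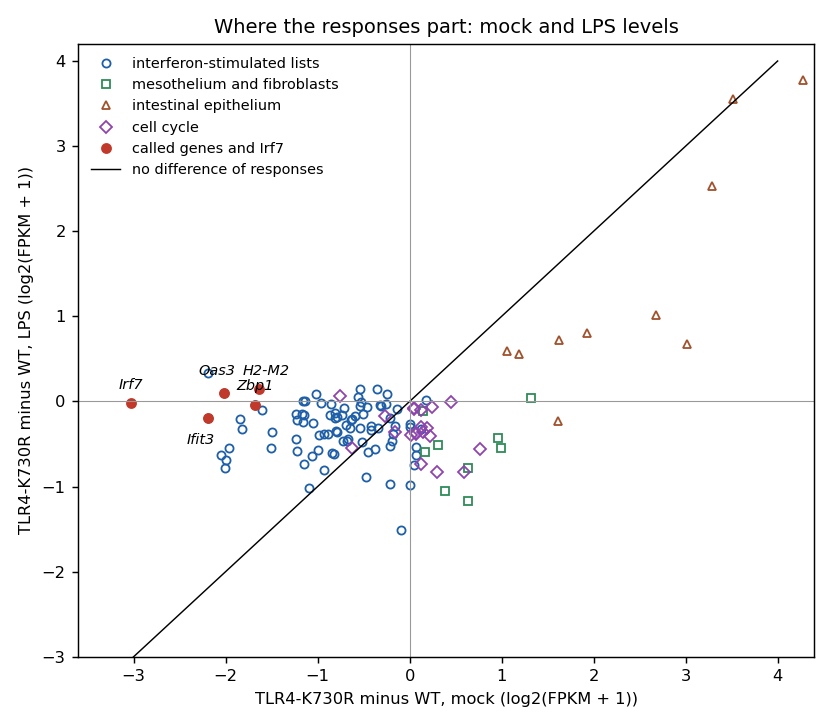
TLR4-K730R minus WT in mock-treated cells (x axis) and in LPS-treated cells (y axis), in log2(FPKM + 1), for the interferon-stimulated lists, the cell cycle list, and marker lists of mesothelium and fibroblasts and of intestinal epithelium; filled points are the called genes, among them H2-M2 of the MHC class I list, and Irf7. A point above the diagonal line has a larger LPS response in TLR4-K730R; these filled points lie far to the left near 0 on the y axis, and Isg15 lies outside the axes.

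No tested gene of the receptor complex and none of the cytokines that the study names was called for the difference over all libraries. In the list of TLR4 receptor and adaptors 5 of 7 tested were above 0, the median was 0.05 and none was called. Of the 10 genes on that list Cd14 did not pass the filter and Ticam1 and Ticam2 had no value, so they were not tested. Myd88, the adaptor of the NF-κB branch, was at 29.3 to 30.1 FPKM in mock-treated WT and 26.0 to 28.6 FPKM in mock-treated TLR4-K730R cells, and its difference was 0.19 (-0.09 to 0.47), or 0.11 without the pair. Tirap, which bridges Myd88 to the receptor, differed by 0.05 (-0.35 to 0.44), or 0.12 without the pair. Ly96, the ligand-binding partner of TLR4, had the lowest value of the list at -1.41 (-2.34 to -0.49, limma adjusted p = 0.512). It was at 15.7, 14.8 and 10.8 FPKM in LPS-treated WT cells and at 10.8, 8.36 and 5.54 FPKM in LPS-treated TLR4-K730R cells, with mock levels of 3.14 to 10.5 and 9.92 to 13.0 FPKM. Ly86 (MD-1), the partner of Cd180 on the same list, was at -0.60 (limma adjusted p = 0.781). It was called in 1 of 33 alternatives, at -1.23 (limma adjusted p = 0.00655) without the pair. The small values of Tnf, Tlr4, Tirap and Lbp changed sign under some other settings.

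Tnf rose from 16.6, 14.2 and 14.7 FPKM to 227, 258 and 268 FPKM in WT and from 18.9, 20.2 and 17.7 FPKM to 323, 330.0 and 259 FPKM in TLR4-K730R. The difference of the responses was -0.03 (95% interval -0.43 to 0.37), or 0.13 without the pair. Il6 was at or near 0 in mock-treated cells and at 25.3, 16.0 and 48.3 FPKM in LPS-treated WT and 43.9, 74.9 and 16.4 FPKM in LPS-treated TLR4-K730R cells. Its difference was 0.51 (-0.74 to 1.75), and 1.49 (limma adjusted p = 0.0663) without the pair. Il1b reached 1383, 1431 and 2026 FPKM in WT and 2869, 2559 and 1430 FPKM in TLR4-K730R, with a difference of -0.55 (-1.32 to 0.23) that began from higher mock levels in TLR4-K730R (4.83 to 6.99 against 2.06 to 3.34 FPKM). Without the pair it was -0.064. Nos2, the inducible nitric oxide synthase, was at 406, 423 and 199 FPKM in LPS-treated WT cells and at 144, 123 and 441 FPKM in LPS-treated TLR4-K730R cells. The values of replicate 3 lay within the other group's range or beyond it. The difference for Nos2 was -1.24 (-2.54 to 0.06, limma adjusted p = 0.725), and -2.17 (adjusted p = 0.0442) without the pair. Without replicate 3 of every group, mock-treated included, Nos2 was called at -2.56 (limma adjusted p = 0.000884), the only call in 33 alternatives. With libraries left out its difference ran from -2.56 to -0.48. Over the whole list of LPS cytokines 12 of 20 tested were above 0, with a median of 0.08 and none past an unadjusted p of 0.05. Without the pair 4 were higher and 2 lower at that p, where 6.16% and 6.23% of all genes were.

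The chemokine list spread in both directions, with 9 of 20 tested above 0, a median of -0.20 and no call, and 2 higher and 3 lower at an unadjusted p below 0.05, where 2.27% and 4.75% of all genes were. Without the LPS replicate 3 pair 6 were higher and 8 lower at that p, where 6.16% and 6.23% of all genes were. Ccl2, which recruits monocytes, was at 292, 249.2 and 219 FPKM in LPS-treated WT cells and at 90.2, 111 and 242 FPKM in LPS-treated TLR4-K730R cells. Its difference was -1.37 (-2.30 to -0.44, limma adjusted p = 0.528), or -1.89 (adjusted p = 0.0274) without the pair. Ccl3 showed the opposite order, with 169.6, 200.2 and 345 FPKM in LPS-treated WT and 520.4, 602 and 183 FPKM in LPS-treated TLR4-K730R cells, and a difference of 0.88 (-0.20 to 1.95), or 1.71 (limma adjusted p = 0.0133) without the pair. Without the pair 2 chemokines were called higher (Cxcl2 and Cxcl3) and 3 lower (Ccl7, Ccl12 and Cxcl11), where 0.309% of all genes were called. Ccl5, a chemokine that attracts T cells and monocytes, was at 7818 to 9345 FPKM in WT and 9414 to 10597 FPKM in TLR4-K730R. Its LPS level was higher in every TLR4-K730R library, which held for 3.32% of all genes, and its response differed by 0.58 (0.14 to 1.03). Of the NF-κB subunits and inhibitors 5 of 11 were above 0 (median -0.05). Nfkbib, an inhibitor of NF-κB, had the highest value at 2.48 (0.72 to 4.23), with one LPS-treated TLR4-K730R library at 108 FPKM beside 48.0 and 35.4 FPKM. It was 4.13 from start events alone and 0.73 from end events alone. The TRIF branch list had a median of -0.36 with 5 of 7 below 0.

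**Figure D4:**
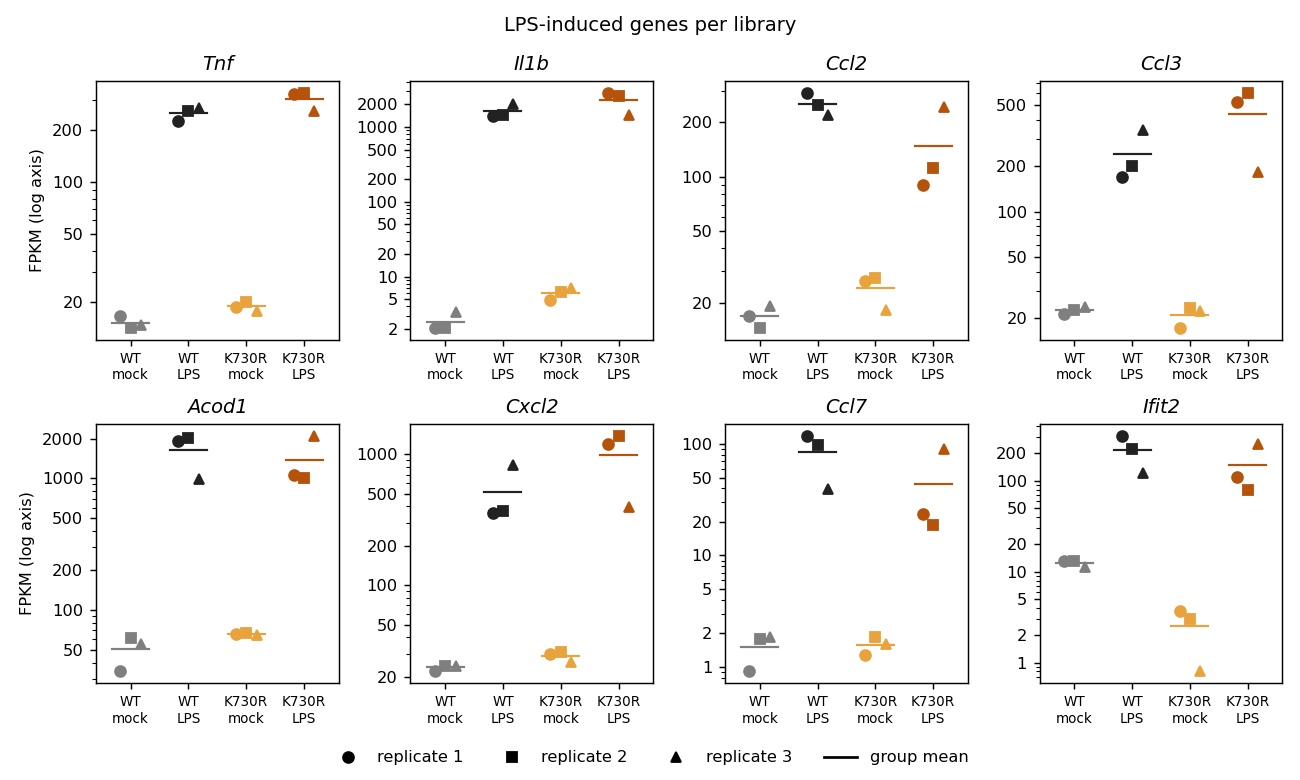
FPKM (log axis) per library for 8 genes induced by LPS, by genotype and treatment; symbols mark the replicate and bars the mean of 3 libraries. In Ccl2, Ccl3, Acod1, Cxcl2, Ccl7 and Ifit2 the LPS-treated replicate 3 libraries of both genotypes lie near or inside the range of replicates 1 and 2 of the other genotype or between the groups.

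Genes with a smaller response in TLR4-K730R did not pass the threshold with all libraries weighted equally. Plac8, a gene of monocytes and plasmacytoid cells, came closest. It was at 0.540, 0.897 and 0.736 FPKM in mock-treated WT cells and at 3.93, 4.49 and 2.98 FPKM in mock-treated TLR4-K730R cells. After LPS it was at 23.5, 13.9 and 13.2 FPKM in WT and at 5.64, 6.84 and 13.7 FPKM in TLR4-K730R. Its mock level was higher in every TLR4-K730R library, as that of 8.91% of all genes was, and its difference was -2.39 (-3.32 to -1.45, limma adjusted p = 0.0549). Without the LPS replicate 3 pair it was -2.87 and called (limma adjusted p = 0.00655), and it was also called with library weights (limma adjusted p = 0.00376). Slc7a2, a cationic amino acid transporter, went the other way, with a difference of 0.996 (0.41 to 1.58). Mt2, a metallothionein, had a difference of -1.28 (-2.05 to -0.51), or -1.80 and called without replicate 3 of every group (limma adjusted p = 0.00619), and 5 of the 6 metallothionein list genes tested were below 0.

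Low differences were also found for Igkc and for genes of other cell types. Igkc, the kappa light chain constant gene of B cells and plasma cells, was at 13.6, 15.9 and 3.78 FPKM in mock-treated WT and 20.7, 40.5 and 16.9 FPKM in mock-treated TLR4-K730R cells. After LPS it was at 20.1, 21.3 and 19.6 FPKM in WT and at 6.89, 4.86 and 4.59 FPKM in TLR4-K730R. The groups were apart in both conditions, and the difference was -2.998 (-4.22 to -1.78, limma adjusted p = 0.0709). The B cell receptor genes Cd79a and Cd79b were under 2 FPKM in all 12 libraries, with differences of 0.37 (0.064 without the pair) and -0.16.

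All 9 tested genes of the mesothelium and fibroblast list were below 0, as 5597 of all 9707 genes were. Their median was -1.39, with 6 at an unadjusted p below 0.05, where 4.75% of all genes were lower, and none called. Without the LPS replicate 3 pair the median was -1.07, with 3 of 9 lower at that p, where 6.23% of all genes were. Col3a1, a fibrillar collagen, was at 5.01 to 6.50 FPKM in mock-treated WT and 8.38 to 10.1 FPKM in mock-treated TLR4-K730R cells. After LPS it was at 15.9, 4.03 and 19.4 FPKM in WT and at 4.28, 4.08 and 4.66 FPKM in TLR4-K730R, and its difference was -1.81 (-3.11 to -0.51, limma adjusted p = 0.532). Serpinh1, the collagen chaperone, Col6a2 and Mxra8, which were on no list, had differences of -1.53, -1.85 and -1.99. That of Mxra8 was -0.0145 when start and end events were summed without the check of position against GENCODE. The summed FPKM of the list was 35.5 to 53.2 in mock-treated WT and 67.1 to 78.7 in mock-treated TLR4-K730R libraries. It was 109, 45.4 and 151 in LPS-treated WT and 50.0 to 51.9 in LPS-treated TLR4-K730R libraries, so WT replicates 1 and 3 were the high ones. Of the 10 intestinal epithelium genes tested 9 were below 0 (median -0.83), 4 of them at an unadjusted p below 0.05, and none at that p without the pair. Their summed FPKM was 0.118 to 0.670 in mock-treated WT libraries and 0.0928, 15.2 and 18.8 in LPS-treated WT libraries, beside 55.9 to 85.5 and 63.3 to 70.3 in mock-treated and LPS-treated TLR4-K730R libraries. The part of these other cells in the results above was not tested.

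Cell cycle genes also leaned lower, with 17 of 20 tested below 0 and a median of -0.43, or -0.21 without the pair. Mcm4, a subunit of the replicative helicase, was at 3.96, 5.04 and 5.76 FPKM in LPS-treated WT and at 2.65, 2.24 and 2.68 FPKM in LPS-treated TLR4-K730R cells, with overlapping mock levels and a difference of -0.86 (-1.27 to -0.45, limma adjusted p = 0.212). Cdc20, an activator of the anaphase-promoting complex, and Birc5 (survivin) had differences of -1.32 (-0.83 without the pair) and -1.42, and in both the high LPS-treated WT libraries were replicates 1 and 3, as in the collagen genes.

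**Figure D5:**
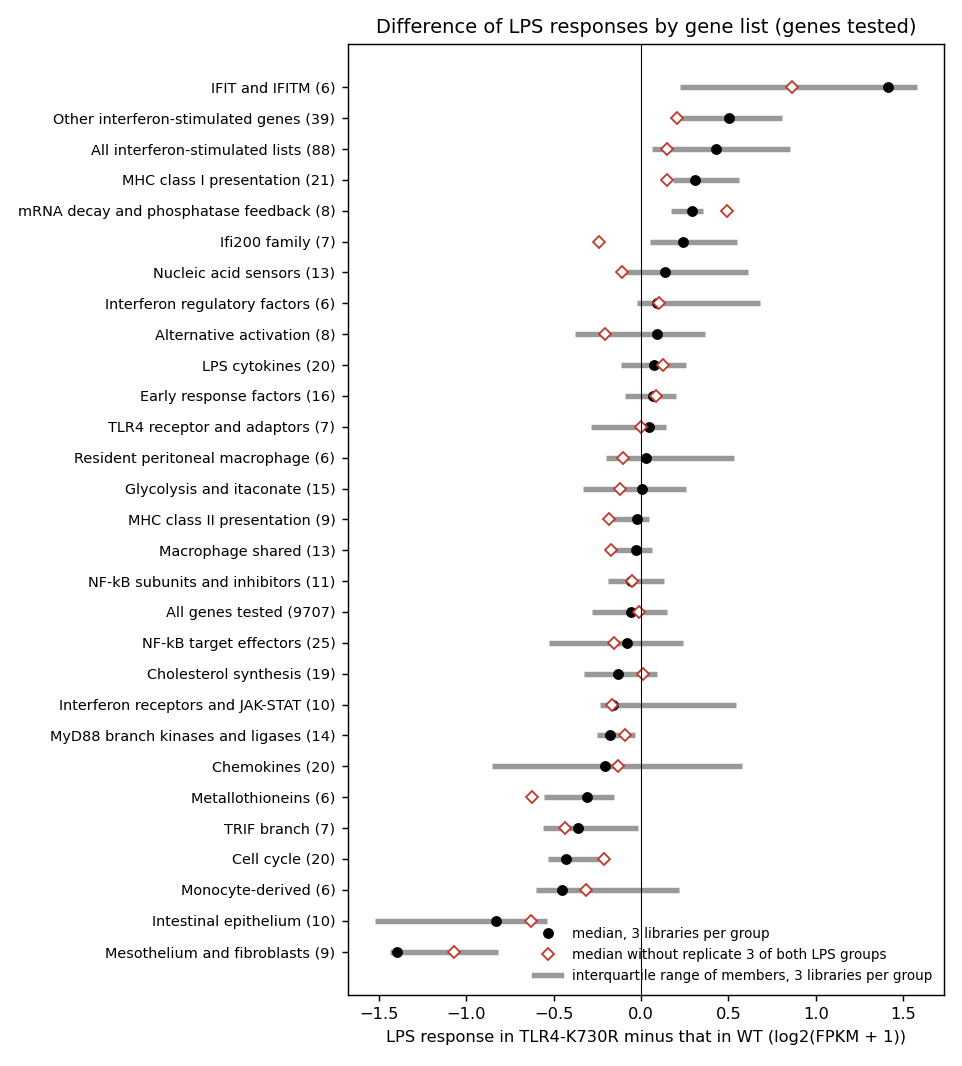
Difference of LPS responses by gene list, for lists with at least 6 genes tested (1 list is not shown) (number in brackets): filled points are medians and grey bars interquartile ranges of the members with 3 libraries per group, and open diamonds are medians without replicate 3 of both LPS-treated groups. The IFIT and IFITM list is highest in both settings and the mesothelium and fibroblast list lowest.

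Genes chosen as LPS-responsive in the TLR4-K810R libraries, which take no part in the contrast, gave the difference over the LPS response as a whole. In those libraries 28.8% of all genes were called after LPS. The 603 genes that rose at least 1 on the log2 scale there had a median difference of 0.07 between TLR4-K730R and WT, with 354 above 0. Their median response was 1.91 in WT and 1.97 in TLR4-K730R. The 957 genes that fell had a median difference of -0.10, with 348 above 0. Among the rising genes the 75 interferon-stimulated ones had a median of 0.45 and the other 528 a median of 0.04. The macrophage gene list, with 5 of 13 tested above 0, had a median of -0.03, and the MHC class II list a median of -0.02. These medians were -0.17 and -0.18 without the LPS replicate 3 pair, with 8 of 9 MHC class II genes then below 0.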

How the data were processed

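The authors deposited 1 table per library with FPKM values for annotated transcript events. The aligner, quantifier and their versions are not given in the sources used here. The submitters' processing notes name the build hg18, a human build, whereas the coordinates in the files match mouse GRCm38. From the deposited FPKM, start (TSS) and end (TTS) events were kept where GENCODE M21 places the gene they name on that strand and at that position (93.5% of such rows, with 5.99% of FPKM dropped) and were summed per gene, and the larger of both sums was taken. Of 14138 gene numbers in the files 14126 matched GENCODE.

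Values were log2(FPKM + 1), which understates changes of low genes. Genes reaching 1 FPKM in 3 or more libraries were tested with limma 3.58.1 (R 4.3.3; 1 mean per group over 18 libraries, intensity trend, two-sided, Benjamini-Hochberg over 9707 genes, called at adjusted p below 0.01, the threshold of the study's methods). Intervals are 95% and unadjusted. Gene lists were described by counts and medians, without a test. Genes were named by rule: those called, those with adjusted p from 0.01 to 0.05, the 10 highest and 10 lowest differences at unadjusted p below 0.01 with at least 5 FPKM in a group, TLR4 components and the study's cytokines, and in each list the members at unadjusted p below 0.05 and the extremes. Cxcl2 and Ccl7 in the plot of induced genes, and genes called only without the LPS replicate 3 pair, were chosen after their values were seen. The comparison, lists and rule were chosen with earlier results of these data known. The fit was also run on simulated data, and the outcome is not reported here. In all, 33 alternatives were computed, 2 of them added after the data were seen. Figures were drawn with matplotlib 3.10.9. Some genes and lists are not reported here.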

Additional observations from a re-analysis of the deposited data

Results flagged for a closer look

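There were 4 genes with LPS responses that differed between TLR4-K730R and WT by the test of the difference itself (limma, adjusted p below 0.01). The difference on the log2(FPKM + 1) scale was 2.11 for Oas3, 1.99 for Ifit3, 1.78 for H2-M2 and 1.65 for Zbp1, each larger in TLR4-K730R. In each gene the 3 mock-treated TLR4-K730R libraries were below the 3 mock-treated WT libraries. The LPS-treated groups overlapped, in Zbp1, Ifit3 and H2-M2 only through replicate 3.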

How the results depend on the processing

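The count of 4 genes was 2 with only the 12 libraries in the fit (H2-M2 and Zbp1), 2 with the TTS sum, 7 at adjusted p below 0.05, and 0 to 30 when libraries were left out. In limma it was 0 without replicate 2 of all groups (617 genes at an unadjusted p below 0.05), 2 without replicate 1 (Cops9 and Gadl1) and 30 without the LPS replicate 3 pair. Without replicate 3 of all groups it was 4, with Nos2 and Mt2 lower beside H2-M2 and Zbp1, and with library weights 6, with Plac8 lower and Usp18 higher added. A replicate block gave 3 genes (Ifit3, Oas3 and Zbp1). The main fit did not use the replicate numbers as pairs. Correlations of same-numbered deviations ran from -0.32 to 0.09, the lowest between the LPS-treated replicate 3 libraries of both genotypes. They do not settle whether libraries were paired by animal or preparation. Without replicate 3 of all groups Ifit3 was at 1.57 (limma adjusted p = 0.0133) and Oas3 at 1.61 (0.0361). Zbp1 was called in 29 of 31 alternatives, Ifit3 in 29 of 33, Oas3 in 28 of 33 and H2-M2 in 15 of 33. All 4 kept their sign in each. Oas3 was at 1.47 with the TTS sum (limma adjusted p = 0.437).

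The WT response count was 1872 and the TLR4-K730R count 1983 among genes whose TSS and TTS sums lay within 1.1 times, where fewer genes were tested, and ran from 1802 to 3393 and from 1940 to 3564 with libraries left out. The medians for genes rising and falling in TLR4-K810R were 0.13 and -0.032 with median-of-ratios scaling and 0.15 and -0.037 with quantile normalization.

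Values of some genes changed sign. Tnf was at 0.048 with median-of-ratios scaling, 0.0093 with quantile normalization and 0.13 with library weights. Lbp was at -0.082 with weights, -0.20 with the TTS sum and -0.021 with the mean of both sums. The TTS sum gave -0.020 for Tirap and 0.089 for Wdfy1, which was at -1.98 over all libraries and kept its sign in 31 of 32 alternatives, and the mean of both sums -0.023 for Tlr4. With libraries left out the ranges were -0.22 to 0.13 for Tnf, -0.38 to 0.34 for Lbp, -0.058 to 0.14 for Tirap, -0.19 to 0.17 for Tlr4, -0.74 to 1.18 for Cd180 and -0.49 to 1.63 for Il6. The cause of these changes was not tested. Read depth is unknown, and 3 libraries per group with a median standard error of 0.29 limit what could be called.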

Other observations

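Without the LPS replicate 3 pair, 30 of 9707 genes (0.309%) had a called difference of responses, 15 in each direction (limma, adjusted p below 0.01). This fit was chosen after the data were seen, leaves 2 LPS-treated libraries per genotype and removes those nearest to the other genotype. Among the genes with a smaller response in TLR4-K730R were the CCR2 ligands Ccl7 at -2.36 and Ccl12 at -1.95, the CXCR3 ligand Cxcl11 at -1.80, the endothelial lipase gene Lipg at -2.19 and Ly86, the partner of Cd180, at -1.23. Among those with a larger response were the neutrophil chemoattractants Cxcl2 at 1.55 and Cxcl3 at 1.90, the gelatinase gene Mmp9 at 1.78 and Nqo1, a quinone reductase, at 1.13.

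In the libraries as labelled, Ccl7 was at 118, 97.6 and 39.8 FPKM in LPS-treated WT cells and at 23.4, 18.6 and 90.1 FPKM in LPS-treated TLR4-K730R cells, and its difference over all libraries was -1.21 (limma adjusted p = 0.759). Cxcl2 was at 355, 370.2 and 836 FPKM in LPS-treated WT and at 1208, 1384 and 393 FPKM in LPS-treated TLR4-K730R cells, with a difference of 0.58 (limma adjusted p = 0.878). In both genes the LPS-treated replicate 3 value of each genotype lay within the range of the other genotype, and the mock levels of the genotypes overlapped for Ccl7.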
